A study of Mus musculus with 10 samples.

Results

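The phagocyte NADPH oxidase is the enzyme with which granulocytes turn oxygen into superoxide. Its transcripts were examined here through 5 genes chosen by name: Cybb, Cyba, Ncf1, Ncf4 and Hvcn1. Each of the 5 symbols matched a single row among the 35725 gene rows of the deposited table, and all 5 passed the low-count filter that left 15586 genes for testing. The samples were lung eosinophils purified by cell sorting from male mice, with 5 libraries from P2ry14-null mice and 5 from C57BL/6J mice carrying P2ry14 (WT). P2ry14 encodes a receptor for UDP-sugars that couples to an inhibitory G protein, and the study asked what its loss does to eosinophils in a model of allergic asthma. Every mouse of either genotype received oropharyngeal ovalbumin (50 µg) together with Aspergillus oryzae protease (20 µg) on 2 occasions and then, after 7 days, an aerosol of 1% ovalbumin, and cells were taken 16 h later. No unchallenged mice were in the series, so all values describe eosinophils of challenged lungs. The sources used here do not give the kind of null allele, the background of the null line, the ages, or whether a library came from 1 mouse or from pooled mice. P-values then measure the spread between these libraries, which may in part be technical.

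The catalytic core of the oxidase is a heterodimer in the membrane, cytochrome b558, made of the products of Cybb and Cyba. Cybb encodes the subunit (gp91phox, also called NOX2) that carries electrons from NADPH across the membrane to oxygen, and Cyba encodes the smaller subunit (p22phox) that stabilises it and offers a docking site. In resting cells the organizer p47phox, made from Ncf1, and p40phox, made from Ncf4, stay in the cytosol. On activation they move to the membrane with the small GTPase Rac. Hvcn1 encodes the voltage-gated proton channel, which lets protons follow the electrons so that the membrane charge does not stop the enzyme. Eosinophils are known for a strong respiratory burst, and much of their superoxide is released at the cell surface. Counting transcripts says nothing of whether the enzyme was assembled or active.

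RefSeq windows around an annotated start (build GRCm38.p6, the assembly behind mm10) were held for 3 of the 5 genes, Cybb, Cyba and Ncf1. These are the genes of the membrane core and of the organizer, and their upstream sequences are shown because the levels of transcription factors described for Cybb are given further on. Each run holds the 250 bases before the start, written 5′ to 3′ on the gene's own strand. Capitals mark matches, on either strand, to GAGGAA (an ETS core of the PU.1 type), CCAAT, or the IRF element. The IRF element is spelled GAAA, any 2 bases, GAAA (the repeat bound by interferon regulatory factors). Shorter or other ETS sequences were not searched.
Cybb: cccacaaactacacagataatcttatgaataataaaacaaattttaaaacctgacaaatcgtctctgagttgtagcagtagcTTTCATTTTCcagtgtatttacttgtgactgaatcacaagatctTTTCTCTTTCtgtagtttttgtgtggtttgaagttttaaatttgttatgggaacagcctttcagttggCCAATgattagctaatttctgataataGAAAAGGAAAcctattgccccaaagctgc
Cyba: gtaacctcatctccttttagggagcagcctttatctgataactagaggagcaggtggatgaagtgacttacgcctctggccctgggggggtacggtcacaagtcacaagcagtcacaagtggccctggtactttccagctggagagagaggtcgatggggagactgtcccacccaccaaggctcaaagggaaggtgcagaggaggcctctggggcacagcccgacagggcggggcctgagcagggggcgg
Ncf1: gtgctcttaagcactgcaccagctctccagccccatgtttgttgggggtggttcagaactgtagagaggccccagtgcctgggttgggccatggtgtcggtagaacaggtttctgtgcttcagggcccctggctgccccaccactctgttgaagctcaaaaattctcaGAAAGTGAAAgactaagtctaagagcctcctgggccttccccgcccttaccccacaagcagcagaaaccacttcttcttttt

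These runs lie at chrX:9469325-9469574 for Cybb, chr8:122432941-122433190 for Cyba and chr5:134229626-134229875 for Ncf1, all on the minus strand. The Cybb run held 3 matches to the IRF element, the nearest ending 20 bases before the start, and 1 to CCAAT, which ended 52 bases before it. A single match to GAGGAA in the Cybb window lay just past the start, at bases 10 to 15 after it, on the reverse strand. Ncf1 held 1 match to the IRF element, and Cyba held none of the 3 motifs. Of all 32851 RefSeq windows, each 300 bases long with 50 bases past the start, 3.44% held the IRF element, 28.3% GAGGAA and 37.4% CCAAT. A match describes the letters only, and no binding was measured. The motifs do not overlap each other in these windows.

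The 5 genes lie on 4 chromosomes, none of them the chromosome of P2ry14. In the mm10 coordinates of the deposited table, Cybb (gene ID 13058) spans chromosome X from 9435252 to 9487766 on the minus strand, so that the RefSeq start above lies inside this span. Cyba (gene ID 13057) spans chromosome 8 from 122424771 to 122432940 and Ncf1 (gene ID 17969) chromosome 5 from 134220053 to 134229625, both on the minus strand. Ncf4 (gene ID 17972) spans chromosome 15 from 78244164 to 78262582 and Hvcn1 (gene ID 74096) chromosome 5 from 122206807 to 122242297, both on the plus strand. In GENCODE vM21 the exons of Cybb, Cyba and Ncf4 share no base with another gene. Exons of Hvcn1 share 1574 bases with Tctn1 and those of Ncf1 share 408 bases with Gtf2ird2, in each case on the opposite strand. No source used here gives the strand setting of the counting, so reads from the shared bases cannot be assigned. In counts per 1e+06 reads (CPM), means of Tctn1 were 13.1 for WT and 13.2 for P2ry14-null, and those of Gtf2ird2 198 and 165 (edgeR log2 fold change -0.27 ± 0.10 (SE), adjusted p = 0.999).

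Total counts ran from 67161968 to 185124080 reads per library, so that even Hvcn1, the least abundant of the 5, was covered by 9122 or more reads in each library, and counting error was small beside the spread between libraries. P2ry14 checked the labels: it stood at 190 to 229 CPM in WT and 21.8 to 24.2 CPM in P2ry14-null libraries (log2 fold change -3.19 ± 0.06 (SE); edgeR adjusted p = 3.74e-12). All 10 genes of the eosinophil list passed the filter, and their sum was 8678 to 9144 CPM in WT and 8651 to 9291 CPM in P2ry14-null. Alox15 gave 5013 and 5049 CPM of this on average. Of the 10, 5 had a log2 fold change above 0 and 5 below. An unadjusted edgeR p under 0.05, met by 4.13% of all tested genes, was met by 2: Epx, given further on, and Prg3. Prg3 was at 6.29 and 4.68 CPM (log2 fold change -0.43 ± 0.11 (SE), edgeR adjusted p = 0.952), with overlapping groups. Neutrophils and macrophages also make this oxidase and B cells also make the proton channel, so markers of these cells are given. Neutrophil genes (8 of 11 past the filter) summed to 3701 to 4641 CPM in WT and 3697 to 5397 CPM in P2ry14-null, of which Retnlg gave 3782 and 4103 CPM on average. Cxcr2 (133 and 130 CPM) and S100a9 (109 and 122 CPM) were also well above the floor. Of the granule genes on that list, Elane had 0 reads in all 10 libraries, Mpo at most 7 and Camp at most 8, while Ngp had 431 to 1278 reads, Ltf 247 to 528 and Mmp8 41 to 316. Of its 8 tested genes, 7 had a log2 fold change above 0 and 3 an unadjusted edgeR p under 0.05, all with overlapping groups: S100a8 was at 0.981 CPM in WT and 1.97 CPM in P2ry14-null, Ly6g at 1.24 and 1.65 CPM and Ngp at 4.40 and 6.35 CPM. Monocyte and macrophage genes (10 of 11 past the filter) summed to 1911 to 2083 and 1871 to 2088 CPM, mostly Adgre1 (1538 and 1470 CPM) and Csf1r (432 and 445 CPM), and the macrophage gene Marco had at most 17 reads. In that list 9 of 10 tested genes had a log2 fold change above 0, with a median of 0.64. Of the 10, 0 had an unadjusted edgeR p under 0.05, and groups overlapped for each. Mrc1 was at 7.42 ± 0.55 CPM in WT and 11.7 ± 11.7 CPM in P2ry14-null (SD, n = 5 each). C1qa was at 2.30 ± 0.51 and 4.34 ± 5.51 CPM and C1qb at 3.16 ± 0.55 and 5.59 ± 6.66 CPM. The higher means were not shared by all P2ry14-null libraries. For Mrc1 1 of them lay above all WT libraries and 2 below all, for C1qa 2 and 3, and for C1qb 1 and 3. B cell genes (6 of 6) summed to 14.4 to 23.3 and 12.7 to 29.2 CPM, and T and NK cell genes (6 of 6 in the table) to 2.18 to 2.87 and 2.39 to 4.61 CPM. The upper end of both was P2ry14-null library 2, and the next highest of its group were at 18.3 and 2.99 CPM. Class II and dendritic cell genes (7 of 7) summed to 106 to 144 CPM in WT and 74.8 to 121 CPM in 4 P2ry14-null libraries, while P2ry14-null library 2 stood apart at 428 CPM. Mast cell and basophil genes (7 of 7) summed to 51.9 to 71.1 and 35.4 to 50.1 CPM, ranges that did not overlap. This sum was mostly Hdc (46.0 and 29.3 CPM, edgeR adjusted p = 0.532, DESeq2 adjusted p = 0.00320), whose groups overlapped. Kit gave 11.5 and 10.2 CPM, and the rest were scarce. Among these, Cpa3 was at 0.568 and 0.351 CPM (13 to 121 reads), with groups that did not overlap, as in 0.648% of all tested genes. All 7 had a log2 fold change below 0. An unadjusted edgeR p under 0.05 was met by 2 of 7, Hdc and Cpa3, against 4.13% of all tested genes. Epithelial and stromal genes (9 of 9) summed to 213 to 237 and 206 to 246 CPM, mostly Pecam1 (221 and 213 CPM). The rest of the epithelial and stromal list was scarce, with higher means in P2ry14-null. Of the 9 genes, 8 had a log2 fold change above 0, with a median of 0.63. An unadjusted edgeR p under 0.05 was met by 5 of 9, against 4.13% of all tested genes. Sftpc, a surfactant gene, was at 2.30 ± 0.51 and 5.84 ± 7.88 CPM and Sftpb at 0.530 ± 0.056 and 1.40 ± 1.84 CPM (SD, n = 5 each). In each of these surfactant genes 2 P2ry14-null libraries lay above all WT libraries and 1 lay below all of them. The elastin gene Eln was at 0.711 and 1.10 CPM with groups that did not overlap. Bulk counts do not show which cells made a transcript. Whether the eosinophils themselves made Retnlg, Adgre1, Csf1r or Pecam1, which dominate their sums, was not tested. The part of other cells in the values below was not tested either. In sorted bulk samples fewer cells of a type and less RNA per cell cannot be told apart.

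All 5 oxidase genes were well expressed, with a mean ratio of 21.8 between the most and the least abundant per exon length. Compared per length, in CPM per kilobase of merged exons (CPKM), Ncf1 was the most abundant at 810 ± 52.0 (SD, n = 10 libraries), rank 32 of the 13038 tested genes with an exon length. Cyba followed at 597 ± 52.4 CPKM, rank 46. Cybb stood at 212 ± 20.5 CPKM, rank 176, and Ncf4 at 193 ± 8.69 CPKM, rank 198. Hvcn1 was lowest at 37.1 ± 1.65 CPKM, rank 1227. The order Ncf1, Cyba, then Cybb and Ncf4, then Hvcn1 held within each of the 10 libraries. Between Cybb and Ncf4 the order was not settled: their ratio ran from 0.941 to 1.23 over libraries, and its mean turned from 1.09 to below 1 when the longest transcript replaced the merged exons as the length (log2 0.13 and -0.04). For scale on the same per-length measure, the eosinophil genes Siglecf and Ccr3 stood at 451 and 427 CPKM, between Cyba and Cybb. The 5 genes took 0.505% to 0.591% of all counts of a library.

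**Figure D1:**
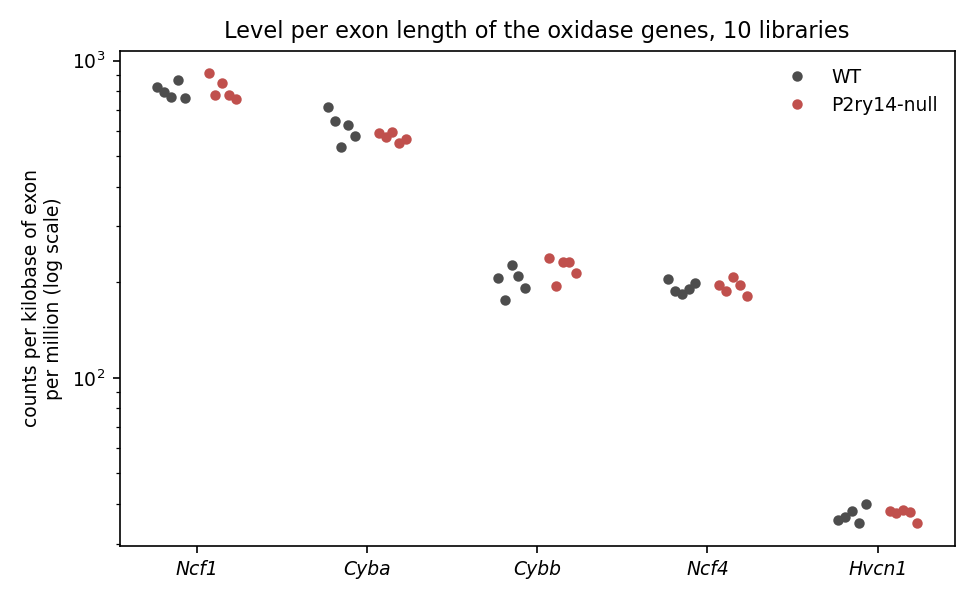
Level of each oxidase gene in CPKM on a log axis, 1 point per library, with WT in grey and P2ry14-null in red. The points of Ncf1 (mean 810) and Cyba (mean 597) lie above those of Cybb and Ncf4 (means 212 and 193), Hvcn1 (mean 37.1) lies lowest, and the genotypes overlap for each gene.

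The subunits were thus not made as equal numbers of transcripts. Within single libraries Cybb stood at 0.274 to 0.424 of the level per length of Cyba, its partner in the membrane. Ncf1 exceeded Ncf4, its companion in the cytosol, 3.83 to 4.66 times, while Cyba, whose product holds the docking site, stood at 0.648 to 0.866 of Ncf1. Cybb exceeded the proton channel gene Hvcn1 4.81 to 6.31 times. Exon length is taken from the annotation and not from the isoforms used in these cells, so these ratios carry an error that the replicates do not show.

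Loss of P2ry14 was not accompanied by a change past the threshold in any of the 5 genes. Of the 5, edgeR's quasi-likelihood test called 0 at an adjusted p under 0.05, against a background of 6 of 15586 genes (0.0385%; those with higher levels after loss of P2ry14 were 0.0128% and those with lower levels 0.0257%). At an unadjusted p under 0.05 it was also 0 of 5, where the background was 644 genes (4.13%), and DESeq2 called 0 of 5 where it called 19 of 16073 genes (0.118%). Their median log2 fold change (P2ry14-null minus WT, as throughout) was 0.01, and that of all tested genes was 0.003. For none of the 5 did the genotypes separate, which 101 genes (0.648%) of all tested did.

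The membrane core came nearest to a difference, with its subunits on opposite sides of 0. Cybb stood at 1198, 1025, 1318, 1215 and 1114 CPM in WT libraries 1 to 5. In P2ry14-null libraries 1 to 5 it stood at 1390, 1131, 1350, 1343 and 1247 CPM. The groups overlapped: 3 of the 5 P2ry14-null libraries lay above the highest WT library, and P2ry14-null library 2, the one that stood apart in class II genes, was the lowest of its group. Mean Cybb was 1174 ± 110 CPM in WT and 1292 ± 105 CPM in P2ry14-null (SD, n = 5 each). The log2 fold change was 0.14 ± 0.07 (SE; edgeR p = 0.0864, adjusted p = 0.999), which is 1.10-fold with a 95% interval from 0.984 to 1.23, and the two-sided exact permutation p was 0.135. Without P2ry14-null library 2 it was 0.18 (edgeR adjusted p = 1.00).

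Cyba, the partner that stabilises the Cybb product, stood at 743, 668, 556, 649 and 601 CPM in WT libraries 1 to 5. In P2ry14-null libraries 1 to 5 it stood at 615, 596, 618, 571 and 588 CPM. All P2ry14-null values lay within the WT range, and WT was the more scattered group, with library 1 highest and library 3 lowest of all 10. Mean Cyba was 643 ± 70.6 CPM in WT and 598 ± 19.3 CPM in P2ry14-null (SD, n = 5 each). The log2 fold change was -0.11 ± 0.07 (SE; edgeR p = 0.146, adjusted p = 0.999), which is 0.929-fold with a 95% interval from 0.837 to 1.03, and the exact permutation p was 0.214. WT library 1 carried much of this: without it the log2 fold change was -0.05 (edgeR adjusted p = 1.00).

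The cytosolic genes lay closer to no difference. Ncf1 stood at 3025, 2909, 2815, 3177 and 2797 CPM in WT and at 3343, 2855, 3110, 2850 and 2779 CPM in P2ry14-null libraries 1 to 5. The groups covered nearly the same range, and P2ry14-null library 1, the shallowest library, held the highest value. Ncf1 had a log2 fold change of 0.02 ± 0.06 (SE; edgeR adjusted p = 0.999), a fold of 1.01 with a 95% interval from 0.924 to 1.11. Without P2ry14-null library 1 it was -0.02.

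Ncf4, which encodes the subunit that binds phosphatidylinositol 3-phosphate on phagosomes, stood at 413, 379, 372, 385 and 403 CPM in WT. In P2ry14-null it stood at 395, 378, 419, 396 and 366 CPM. The ranges coincided, with both the highest and the lowest library in the P2ry14-null group. Means were 390 ± 17.2 and 391 ± 20.0 CPM (SD, n = 5 each), giving a log2 fold change of 0.002 ± 0.05 (SE; edgeR adjusted p = 0.999) and a 95% interval of the fold from 0.929 to 1.08.

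The proton channel gene Hvcn1 stood at 127, 129, 136, 124 and 142 CPM in WT libraries and at 135, 133, 136, 134 and 124 CPM in P2ry14-null libraries. The P2ry14-null values lay within the WT range except library 5, which was just below its lowest value. Means were 132 ± 7.32 and 133 ± 4.90 CPM (SD, n = 5 each), with a log2 fold change of 0.01 ± 0.05 (SE; edgeR adjusted p = 0.999) and a 95% interval of the fold from 0.937 to 1.08. For Ncf4 and Hvcn1 the interval thus leaves room for a rise of no more than 1.08-fold, whereas for Cybb it reaches 1.23-fold.

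**Figure D2:**
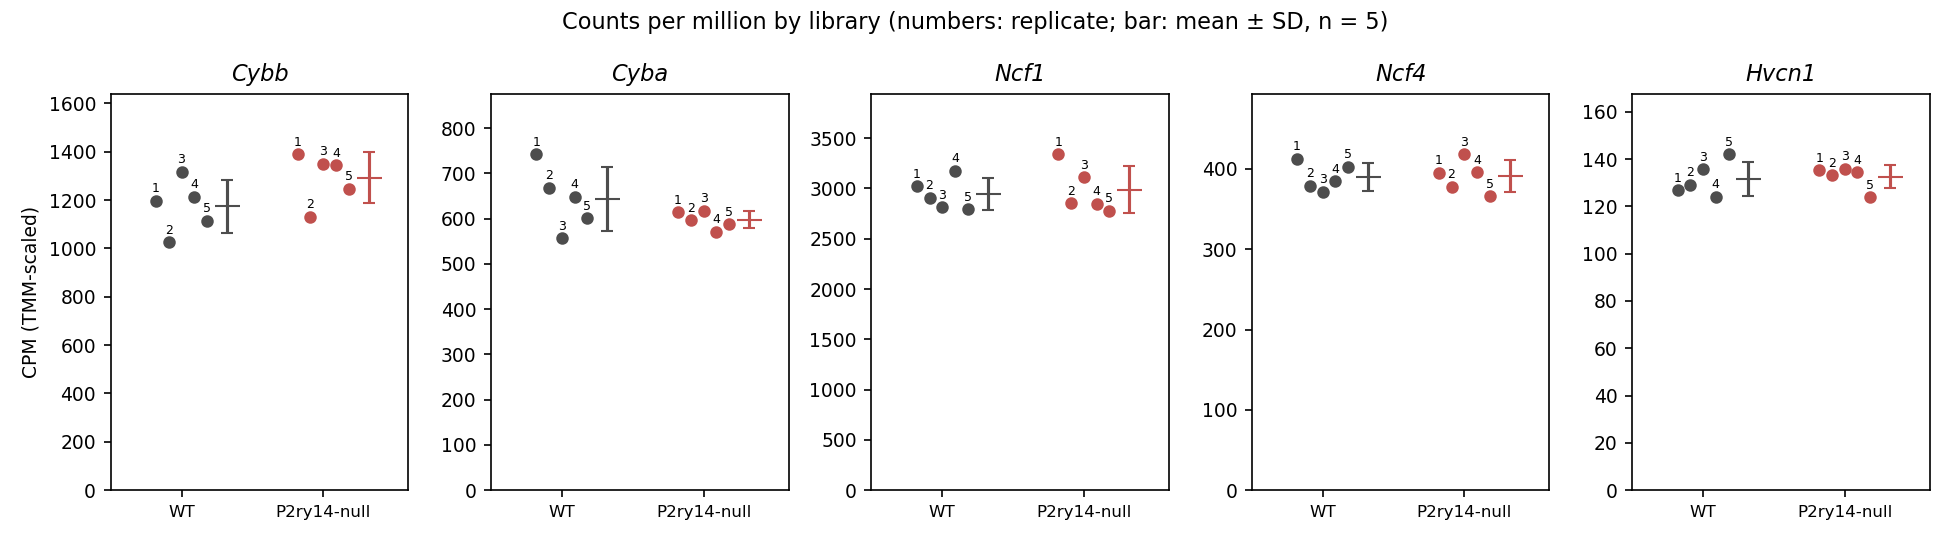
CPM of the 5 oxidase genes, 1 point per library with its replicate number, on axes that start at 0, with the mean and SD of 5 libraries beside each group. Cybb has 3 P2ry14-null libraries above all WT libraries, Cyba has its widest scatter in WT (556 to 743 CPM), and Ncf1, Ncf4 and Hvcn1 cover like ranges in either genotype.

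The genes also differed in how much they varied between libraries of the same genotype. The within-group SD on the log2 CPM scale was 0.129 for Cybb, 0.116 for Cyba and 0.0955 for Ncf1. It was 0.0685 for Ncf4 and 0.0681 for Hvcn1. The median over the 2175 genes above 100 CPM was 0.0931, so that Cybb and Cyba lay above it and Ncf4 and the channel gene below it. For Cyba this came from the WT group (SD 70.6 CPM), since its SD in P2ry14-null was 19.3 CPM. No test was made of this order.

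Ratios within a library do not depend on how libraries are scaled, and the 10 pairs of the 5 genes were compared this way. The largest difference was in Cybb over Cyba, the partners in the membrane core. Per length, this ratio was 0.289, 0.274, 0.424, 0.335 and 0.332 in WT libraries 1 to 5 and 0.405, 0.339, 0.391, 0.421 and 0.379 in P2ry14-null libraries. All P2ry14-null values lay above 4 of the 5 WT values, and WT library 3 had the highest ratio of all. The geometric mean was 0.327 in WT and 0.386 in P2ry14-null, a log2 difference of 0.24 (two-sided exact permutation p = 0.0952; adjusted over 10 pairs 0.291). With single libraries left out, the difference ran from 0.18 without WT library 2 to 0.33 without WT library 3 (adjusted exact permutation p = 0.635 and 0.106).

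Cybb was also higher relative to Ncf1, Ncf4 and Hvcn1 in P2ry14-null, by 0.12, 0.14 and 0.13 on the log2 scale, and Cyba lower relative to the same 3 genes, by values of -0.12, -0.10 and -0.11. WT library 1 carried part of the Cyba differences: without it Cyba differed by -0.08 relative to Ncf1 and by -0.05 relative to Hvcn1. None of the 6 differences passed (adjusted exact permutation p from 0.291 to 0.442). Among Ncf1, Ncf4 and Hvcn1 themselves the 3 ratios moved by less than 0.02 (adjusted exact permutation p 0.944 for each).

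**Figure D3:**
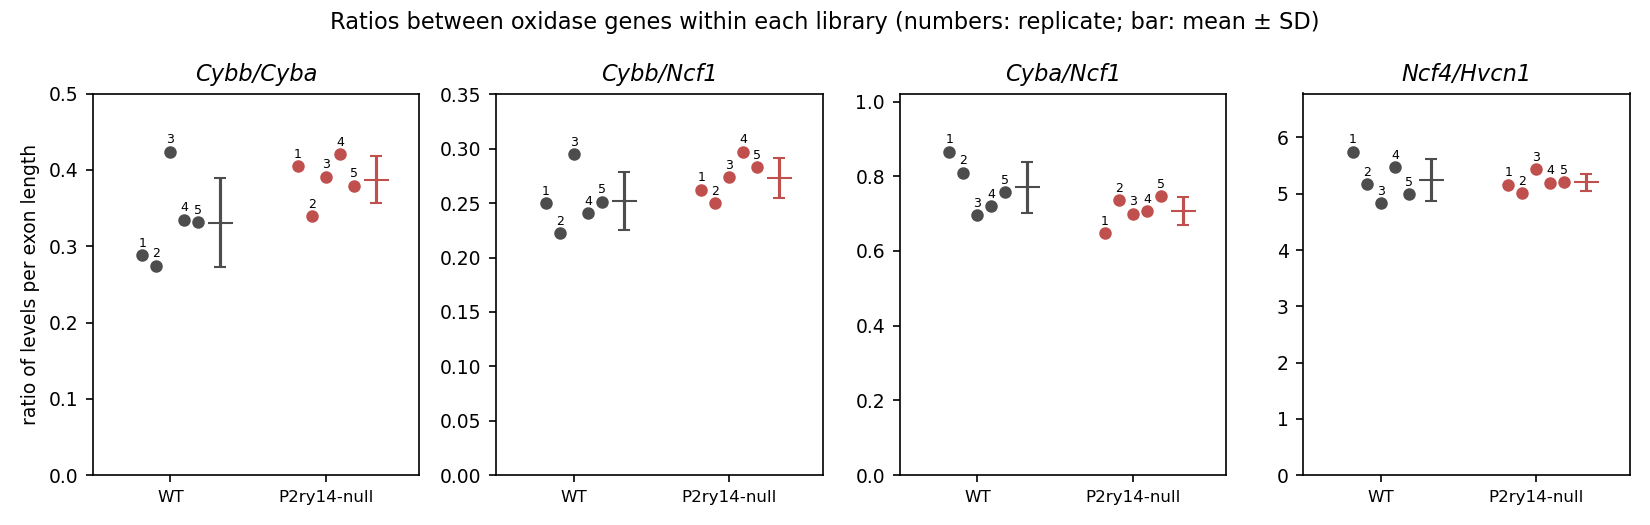
Ratios of levels per exon length between pairs of oxidase genes within each library, with replicate numbers, on axes that start at 0, and the mean and SD of 5 libraries beside each group. In Cybb over Cyba, WT library 3 (0.424) stands above the other WT libraries (0.274 to 0.335) and the P2ry14-null libraries run from 0.339 to 0.421.

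With group means removed, no pair of the 5 genes had a correlation over the 10 libraries that passed after adjustment, and 7 of the 10 values of r were above 0. Over the 10 pairs, Pearson's r ran from -0.477 (Cyba with Hvcn1, permutation p = 0.157) to 0.515 (Cyba with Ncf1, permutation p = 0.134), and adjusted p-values were 0.495 or higher. For Cyba with Ncf1, Spearman's rho was 0.673 (permutation p = 0.0400, adjusted 0.400), and r was 0.642 without the 2 libraries farthest from the median of Cyba, WT libraries 1 and 3. For Cyba with Hvcn1, rho was -0.430 (permutation p = 0.216, adjusted 0.500), and r was -0.369 without the same 2 libraries. Ncf1 with Ncf4 had an r of 0.440 (permutation p = 0.204) and a rho of 0.370 (permutation p = 0.297), and r was 0.753 without the 2 libraries farthest in Ncf1, P2ry14-null library 1 and WT library 4. Other values fell in this way: Cyba with Ncf4 had an r of 0.488 (permutation p = 0.151), and -0.03 without WT libraries 1 and 3. Ncf4 with Hvcn1 went from 0.366 to 0.05 and Cybb with Ncf4 from 0.248 to -0.08, without the 2 libraries farthest in the gene named first. Cybb and Cyba, whose proteins depend on each other, had an r of -0.218 (permutation p = 0.553) and a rho of -0.212 (permutation p = 0.560), and r was -0.183 without the 2 libraries farthest in Cybb.

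Likeness was searched among 7395 other genes of at least 10 CPM, leaving out provisional and pseudogene symbols. Those closest to the mean standardised pattern of the 5 genes were Cerk (r = 0.932), Ddx31 (r = 0.908) and Atg3 (r = 0.906), over 10 libraries with group means removed. Single genes had as their nearest pattern Pibf1 for Cybb (r = 0.955), Exosc8 for Cyba (r = 0.991), Sema4d for Ncf1 (r = 0.913), Mrps25 for Ncf4 (r = 0.942) and Sirpa for Hvcn1 (r = 0.965). These are the highest of very many values over few libraries and are given as a description only.

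The partners that load and regulate the oxidase were also at like levels in either genotype. Of 17 genes of this list, 0 were called in either direction by edgeR (0 at an unadjusted p under 0.05) and 0 by DESeq2. Their median log2 fold change was -0.01, with 8 above and 9 below 0 and a range from -0.09 to 0.09. Rac2, the Rac GTPase characteristic of blood cells, stood at 981 ± 67.1 CPM in WT and 951 ± 30.4 CPM in P2ry14-null (SD, n = 5 each). Rac1, its broadly expressed relative, stood at 263 ± 19.2 and 258 ± 8.95 CPM. Per length, Rac2 was the more abundant, at 311 against 57.9 CPKM. Arhgdib, which holds Rac proteins inactive in the cytosol of blood cells, stood at 1104 ± 47.5 and 1047 ± 31.2 CPM, with a log2 fold change of -0.08 ± 0.05 (SE; edgeR adjusted p = 0.999).

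The lowest and the highest log2 fold change of the list belonged to Cybc1 and Prkcb. Cybc1, listed in the table as BC017643 and matched by gene ID, encodes the chaperone that the membrane core needs to mature, and its mean was 123 CPM for WT and 115 CPM for P2ry14-null. Its log2 fold change of -0.09 ± 0.08 (SE; edgeR adjusted p = 0.999) was on the same side as that of Cyba and became -0.03 without WT library 1. Prkcd and Prkcb encode protein kinases C of the kind that phosphorylate the organizer. Prkcd was at 930 and 926 CPM and Prkcb at 403 and 430 CPM (log2 fold change 0.09 ± 0.06 (SE); edgeR adjusted p = 0.999), a difference of 0.06 without WT library 2. The kinase gene Pak1 had the smallest p of the list (edgeR p = 0.103, adjusted p = 0.999; exact permutation p = 0.0556), at 40.1 and 42.1 CPM, and the small GTPase gene Rap1a was at 63.0 and 62.6 CPM.

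Other oxidases of the family were near the floor, so that Cybb was the abundant catalytic subunit among those counted. Of 9 genes of this list, 2 passed the low-count filter and 0 were called by edgeR (0 at an unadjusted p under 0.05) or DESeq2. Nox4 had at most 16 reads in a library (0.0905 and 0.0769 CPM), Nox1 at most 9, Duox1 at most 5 and Duox2 at most 1. Nox3 had 0 reads in all 10 libraries. Noxo1, the organizer that resembles the Ncf1 product and serves other oxidases, stood at 4.88 ± 0.14 CPM in WT and 4.75 ± 0.22 CPM in P2ry14-null (SD, n = 5 each), with a log2 fold change of -0.04 ± 0.06 (SE; edgeR adjusted p = 0.999) that became -0.02 without WT library 2.

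Genes that dispose of superoxide and peroxide gave 14 tested of 15, with 0 called by edgeR or DESeq2 and 2 at an unadjusted edgeR p under 0.05. The median log2 fold change was -0.05, with 2 above and 12 below 0. With single libraries left out, this median ran from -0.095 without WT library 3 to -0.008 without WT library 1. Sod2, the mitochondrial superoxide dismutase, stood at 56.1, 50.9, 50.7, 63.3 and 48.7 CPM in WT and at 49.0, 43.4, 48.2, 48.1 and 42.2 CPM in P2ry14-null libraries. Only P2ry14-null library 1 lay above the lowest WT library. Its log2 fold change was -0.22 ± 0.07 (SE; edgeR p = 0.00902, adjusted p = 0.999; exact permutation p = 0.0159). Epx encodes eosinophil peroxidase, which uses the hydrogen peroxide that superoxide yields, and it stood at 23.5, 23.2, 24.2, 23.4 and 25.5 CPM in WT and at 31.9, 27.5, 23.9, 31.1 and 26.2 CPM in P2ry14-null. In Epx 4 of 5 P2ry14-null libraries lay above the highest WT library, with a log2 fold change of 0.23 ± 0.07 (SE; edgeR p = 0.00783, adjusted p = 0.999; exact permutation p = 0.0238).

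The most abundant genes of that list differed less. Gpx1, a glutathione peroxidase of the cytosol, stood at 979 ± 70.3 and 947 ± 53.2 CPM, catalase (Cat) at 356 ± 23.0 and 354 ± 17.5 CPM, and thioredoxin (Txn1) at 143 ± 17.2 and 134 ± 4.42 CPM (WT and P2ry14-null, SD, n = 5 each). Txn1 had a log2 fold change of -0.10 ± 0.07 (SE; edgeR adjusted p = 0.999), which became -0.02 without WT library 1, which was also the library with the highest Cyba.

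The oxidase consumes NADPH, and of 9 genes that supply it 0 were called by edgeR (0 at an unadjusted p under 0.05) or DESeq2. Their median log2 fold change was 0.04, with 7 above and 2 below 0. In the pentose phosphate pathway Pgd stood at 610 ± 36.1 CPM in WT and 616 ± 22.8 CPM in P2ry14-null, and G6pdx, which carries out its first step, at 165 ± 5.26 and 170 ± 8.69 CPM (SD, n = 5 each). Nadk, the kinase that makes NADP from NAD, stood at 286 ± 8.23 and 294 ± 6.68 CPM. H6pd, the counterpart of G6pdx in the endoplasmic reticulum, was at 87.6 and 93.7 CPM (log2 fold change 0.10 ± 0.07 (SE); edgeR adjusted p = 0.999), and its log2 fold change was 0.05 without WT library 1. Malic enzyme Me1 was scarce, at 0.0877 and 0.137 CPM, and its log2 fold change of 0.67 ± 0.39 (SE; edgeR adjusted p = 0.999) became 0.12 without P2ry14-null library 2.

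Of 11 transcription factors, chosen because several are described at Cybb in myeloid cells, 0 were called by edgeR or DESeq2 and 1 had an unadjusted edgeR p under 0.05. Their median log2 fold change was 0.01, with 6 above and 5 below 0. Spi1, the gene of PU.1, stood at 561 ± 26.1 CPM in WT and 546 ± 15.7 CPM in P2ry14-null (SD, n = 5 each). Cebpb stood at 2644 ± 316 and 2469 ± 155 CPM and Cebpe, a factor of granulocyte maturation, at 395 ± 34.2 and 390 ± 28.9 CPM. Irf1, an interferon regulatory factor whose repeat was searched in the windows above, stood at 301, 213, 226, 210 and 220 CPM in WT and at 170, 160, 255, 153 and 172 CPM in P2ry14-null. In Irf1 4 of 5 P2ry14-null libraries lay below all WT libraries and library 3 lay above 4 of them. The log2 fold change of Irf1 was -0.36 ± 0.14 (SE; edgeR p = 0.0205, adjusted p = 0.999; exact permutation p = 0.0397), and it ran from -0.51 without P2ry14-null library 3 to -0.26 without WT library 1. Cybb, with 3 of the repeats in its window, had a log2 fold change of 0.14. Neither gene passed the edgeR test, and a link between Irf1 and Cybb was not tested. Cux1, a repressor described at Cybb, stood at 122 ± 12.3 and 128 ± 2.10 CPM, with a log2 fold change of 0.07 ± 0.06 (SE; edgeR adjusted p = 0.999) that became 0.009 without WT library 1.

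**Figure D4:**
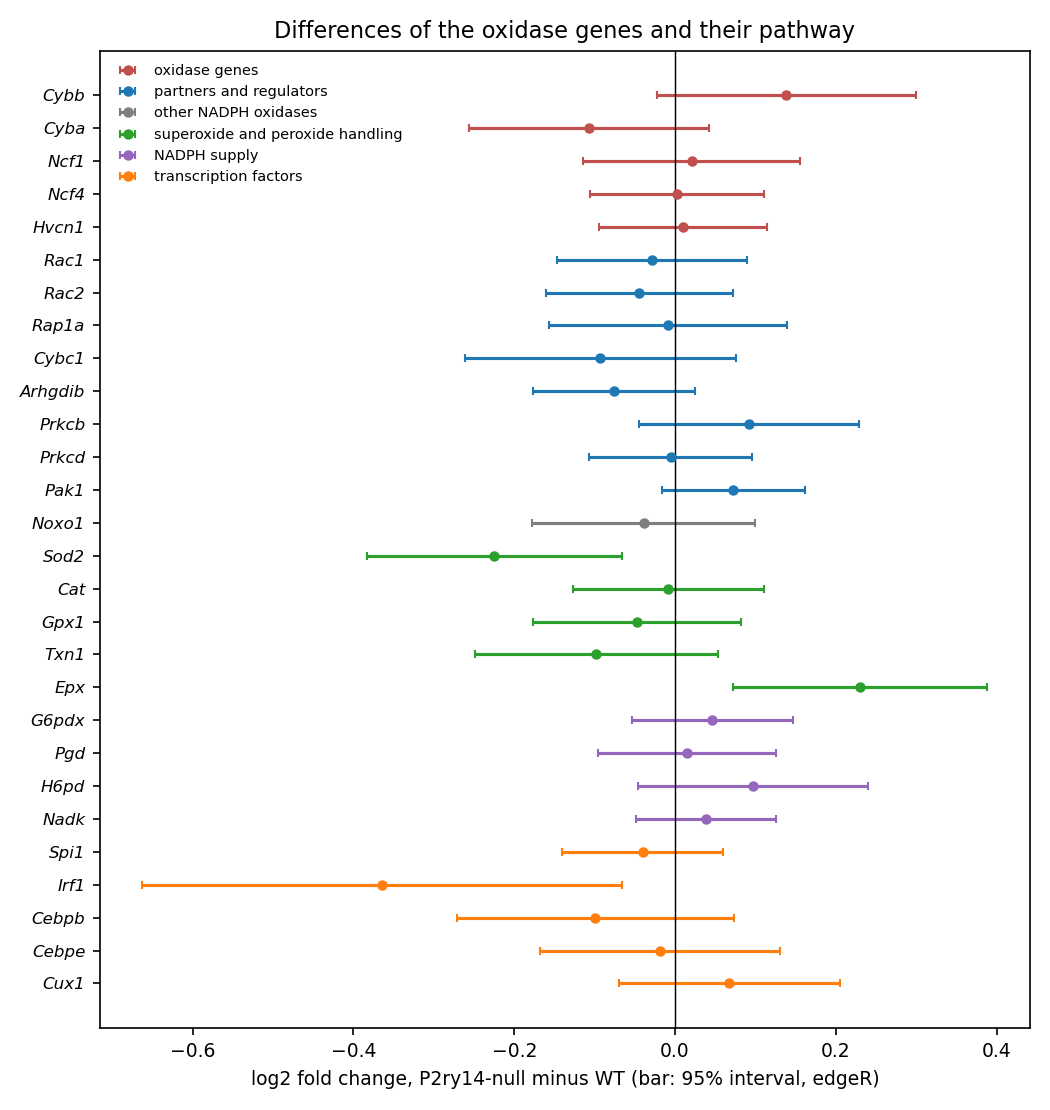
Log2 fold changes (P2ry14-null minus WT) with 95% intervals from edgeR for the 5 oxidase genes and the named genes of their pathway, coloured by list; Nox4 and Me1 are left out because of their few reads. The intervals of all 5 oxidase genes include 0, and those of Sod2, Epx and Irf1 do not, although none of these 3 passed after adjustment over all tested genes.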

How the data were processed

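RNA of sorted lung eosinophils was sequenced in 10 libraries, 5 per genotype. The deposited table holds the authors' raw read counts, as whole numbers, with a column for each library. The submitters' processing notes name STAR 2.5, build mm10, Subread, DESeq2 and featureCounts 1.5.0-p1, without roles. Which annotation and strand setting were used, and how reads with several matches were treated, is not given in the sources used here. Column names equalled sample titles, which gave group and replicate.

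The counts were fitted in edgeR 4.0.16 (R 4.3.3) with genotype as the only term, after its default filter on low counts and TMM scaling. P-values of the quasi-likelihood F test were adjusted by the Benjamini-Hochberg method across the 15586 genes kept (threshold 0.05). An SE is the size of the log2 fold change over the root of its F value. The fit was tested on simulated data. CPM uses TMM-scaled library sizes. Lengths are merged exons of GENCODE vM21, found for 83.7% of tested genes. Ratios were tested by exact permutation over 5 against 5 libraries, whose smallest p is 0.0079, and correlations by 100000 resamples. No 2 libraries of a group agreed within sampling noise (chi-square of 23.1 or more per gene). Alternatives were DESeq2 1.42.0, its size factors in edgeR, no low-count filter, a replicate block and each library left out.

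The 5 genes, the lists and the tests were chosen with earlier results of these data known. Named were the 5 genes, P2ry14 and, of each list, the 3 of highest level per length and the 2 others of smallest p, with Rac1, Rac2, Rap1a and Cybc1 always. Of other oxidases, those past the filter were named. Likeness named the 3 genes nearest the mean and 1 nearest each gene. Marker genes, overlapping genes, Nox1, Nox3, Duox1 and Duox2 were named after their values were seen. 1 gene of the partner list and 1 of the transcription factor list are not reported here.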

Additional observations from a re-analysis of the deposited data

Results flagged for a closer look

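A library was looked at again where it stood far from the other 4 of its group by Dixon's criterion for 5 samples, which chance meets in about 1 of 20 groups. Of 82 groups examined, 8 met it. Among the oxidase genes, Hvcn1 in P2ry14-null library 5 was low at 124 CPM, against 133 to 136 CPM in the other 4, and the ratio of Cybb to Hvcn1 per length in P2ry14-null library 2 was low at 5.21, against 6.09 to 6.31.

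P2ry14-null library 3 was high in the transcription factors Irf1 at 255 CPM (others 153 to 172) and Cebpb at 2739 CPM (others 2371 to 2452). WT library 1 was high in Irf1 at 301.5 CPM (others 210 to 226) and in Txn1 at 173.2 CPM (others 132 to 142). WT library 4 was low in Cebpe at 336.7 CPM (others 398 to 421), and P2ry14-null library 2 was high in Me1 at 0.305 CPM (others 0.0705 to 0.132). The causes were not tested.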

How the results depend on the processing

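No oxidase gene passed the threshold under any of the 15 alternatives to the edgeR fit. Cybb stayed above 0 (0.09 to 0.18) and Cyba below 0 (-0.15 to -0.05) in all of them. Without the low-count filter the log2 fold change turned to -0.00812 for Ncf4 and -0.000133 for Hvcn1. With single libraries left out, it ran from -0.0232 to 0.0551 for Ncf1, -0.0154 to 0.0259 for Ncf4 and -0.00423 to 0.0392 for Hvcn1. Likewise the log2 ratio differences ran from -0.0197 to 0.0498 for Ncf1 over Ncf4, -0.0390 to 0.0561 for Ncf1 over Hvcn1 and -0.0385 to 0.0242 for Ncf4 over Hvcn1. The other ratio differences kept their sign: 0.18 to 0.33 for Cybb over Cyba, 0.08 to 0.18 over Ncf1, 0.10 to 0.20 over Ncf4 and 0.08 to 0.18 over Hvcn1, and for Cyba -0.15 to -0.08 over Ncf1, -0.14 to -0.07 over Ncf4 and -0.17 to -0.05 over Hvcn1. The cause of the turns around 0 was not tested. The count of called genes over the whole table was 6, and 3 to 5 with single libraries left out, 19 with DESeq2, and 45 with DESeq2 and a replicate block, an alternative added after seeing the data. Deviations from the group mean in libraries of the same number had correlations from -0.147 to 0.226, which were not tested. This block is given as an alternative only. With edgeR and the replicate block the log2 fold changes were 0.14 for Cybb and -0.10 for Cyba (adjusted p = 1.00 each), and 6 genes were called. Of the pathway lists, 1 gene, Irf1, was called in 1 alternative, DESeq2 with the replicate block. The log2 ratio of Cybb to Cyba kept its difference of 0.24 with the block (exact sign-flip permutation, adjusted p = 0.313), a design whose smallest unadjusted p is 0.0625.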
